A study of Mus musculus with 8 samples.

Results

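The 9 genes described here carry the type I interferon signal from the cell surface to the nucleus. They are the receptor chains Ifnar1 and Ifnar2, the receptor-bound kinases Jak1 and Tyk2, the transcription factor subunits Stat2 and Irf9, and the interferon regulatory factors Irf7, Irf1 and Irf2. They were chosen by gene symbol and are 9 of the 27998 genes in each of 4 single-cell RNA-seq libraries of mouse bone marrow. The cells were sorted as lineage-negative c-Kit+ (LK) hematopoietic stem and progenitor cells, to which additionally sorted LK CD150+ CD48- CD34- hematopoietic stem cells (HSCs) had been added. Wildtype mice aged 12 to 14 weeks had received recombinant mouse IFNα subcutaneously, at 50000 IU per 20 g of body weight, 3, 24 or 72 h earlier. Control mice had received 100 µl of PBS, and no group carried a transgene or a deletion. Each group held 4 mice, told apart by hashtag antibodies within 1 library per group, so that time point and library cannot be told apart.

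Type I interferons bind a receptor made of the IFNAR1 and IFNAR2 chains. The attached kinases TYK2 and JAK1 then phosphorylate STAT2, which is bound to IRF9 in the factor ISGF3, and ISGF3 binds the interferon-stimulated response element (ISRE) of its target genes. Several parts of this chain are themselves interferon targets: IRF7 drives further interferon production, IRF1 activates genes of the same kind and is induced through GAS elements, and IRF2 competes with the activating factors for the same sites. In the bone marrow, IRF2 is known as a restraint on type I interferon signalling in HSCs, and a single interferon dose is known to draw dormant HSCs into division.

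The promoters are shown first, since the 5 members that rose and the 4 that did not rise by a comparable amount can be set against the same short motifs. All 9 members matched the RefSeq promoter table of build GRCm38.p6, with 11 windows of 250 bases before a start site. An ISRE-like string, GAAA followed after 2 free bases by GAAA again, was searched on both strands and stood in 2.977% of the 32851 promoter windows searched. The motif TTCNNNGAA, a GAS-like string that reads the same on both strands, stood in 7.02% of them. Windows on a chromosome that was left out, or of another length, were not searched. Of the members, 2 held the ISRE-like string (Irf2 and Stat2) and 3 held the GAS-like string (Irf2, Irf1 and Ifnar2). Neither string was found in the windows of Irf7, Irf9, Ifnar1, Jak1 and Tyk2, nor in the second window of Irf1. Both Irf9 windows (chr14:55603735-55603984 and chr14:55604329-55604578) and the second Irf1 window lay inside the annotated span of their gene. For Irf9, sequence before the annotated gene start was therefore not searched. A match is a string of letters, not a bound site. The stretches around the matches are given 5′ to 3′ on the plus strand, which is the coding strand of all 4 genes, with the matching letters in capitals.
Irf2, chr8:46739495-46739569: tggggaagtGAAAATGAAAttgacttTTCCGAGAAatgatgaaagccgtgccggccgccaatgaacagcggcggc
Stat2, chr10:128270248-128270325: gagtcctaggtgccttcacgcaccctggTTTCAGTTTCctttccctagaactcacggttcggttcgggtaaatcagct
Irf1, chr11:53769884-53769972: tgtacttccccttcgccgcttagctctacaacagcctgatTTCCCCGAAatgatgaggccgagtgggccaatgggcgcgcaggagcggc
Ifnar2, chr16:91372533-91372617: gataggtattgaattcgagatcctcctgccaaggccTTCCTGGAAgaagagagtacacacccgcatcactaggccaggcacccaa
In Irf2 the ISRE-like letters lay at -241 to -232 and the GAS-like letters at -224 to -216 from the start site, without overlap. The ISRE-like letters of Stat2 lay at -222 to -213 and were a match on the minus strand. The GAS-like letters lay at -90 to -82 in Irf1 and at -214 to -206 in Ifnar2.

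The gene bodies are given by GENCODE on GRCm38. Ifnar1 spans chr16:91485238-91507441 and Ifnar2 chr16:91372783-91405589, both on the plus strand. Jak1 spans chr4:101152367-101265282 and Tyk2 chr9:21104068-21131243, both on the minus strand. Stat2 lies at chr10:128270559-128292849 and Irf9 at chr14:55603571-55610030, both on the plus strand. Irf7 lies at chr7:141262706-141266481 on the minus strand, Irf1 at chr11:53770014-53778374 and Irf2 at chr8:46739732-46847458, the last pair on the plus strand. Ifnar2 overlaps Gm21970 and Irf9 overlaps Rnf31 on the same strand, and Jak1 overlaps the pseudogene Gm12785 on its own strand. The position of a read in a shared stretch does not by itself tell its gene. How far this touched the counts was not tested.

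After removal of hashtag doublets, unassigned cells, cells over 5% mitochondrial UMIs and cells under 700 genes, 2474 control cells, 1661 cells at 3 h, 3462 at 24 h and 2449 at 72 h remained. Median depth per cell ranged from 12017 UMIs at 3 h to 18964.5 in control. The mice held between 58 and 1240 kept cells and between 1102706 and 26446327 UMIs, and the lowest of each was control mouse 4. Pairs of libraries shared 0 or 1 cell barcode. Levels are given in CPM, the summed UMIs of a mouse brought to a common total, with totals corrected by the trimmed mean of M values (TMM). A change was called where the adjusted p of edgeR's quasi-likelihood test was under 0.05 over all genes tested, and errors of log2 fold changes are standard errors. Scaling by library size in place of TMM moved the median of all 12042 genes at 3 h by -0.148 on the log2 scale.

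In the whole LK compartment, 5 members formed the response: Irf7, Stat2, Irf9, Irf1 and Irf2 rose at 3 h, and all 4 treated mice lay above all 4 control mice for each. At 3 h, 6 of the 9 members had passed as higher and 0 as lower, where 19.7% of all genes tested were called higher and 19.2% lower. At an unadjusted p under 0.05, 2 members would have been lower at 3 h, and DESeq2 also called 0. Groups of mice did not overlap for 5 members, against 29.3% of all genes. The median log2 fold change of the members was 0.90, against -0.03 over all genes. With a log2 fold change over 1 required as well, 4 of 9 members were called higher, against 5.22% of all genes.

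At 24 h, 6 members were higher and 2 lower, where 14.5% of all genes were called higher and 13.8% lower. The median log2 fold change of the members had fallen to 0.33, and 5 of 9 did not overlap with control, against 23.8% of all genes. At 72 h, 2 members were higher and 2 lower, with 18.9% and 18.5% of all genes called in these directions, so the members' share was close to that of all genes. The median of the members at 72 h was 0.03, and 3 of 9 did not overlap, against 29.9% of all genes. From 3 to 24 h 5 members fell, where 16.3% of genes did, and from 24 to 72 h 4 fell, where 5.38% did. The 5 were the induced members, and the 4 were Irf7, Irf9, Stat2 and Ifnar2.

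**Figure D1:**
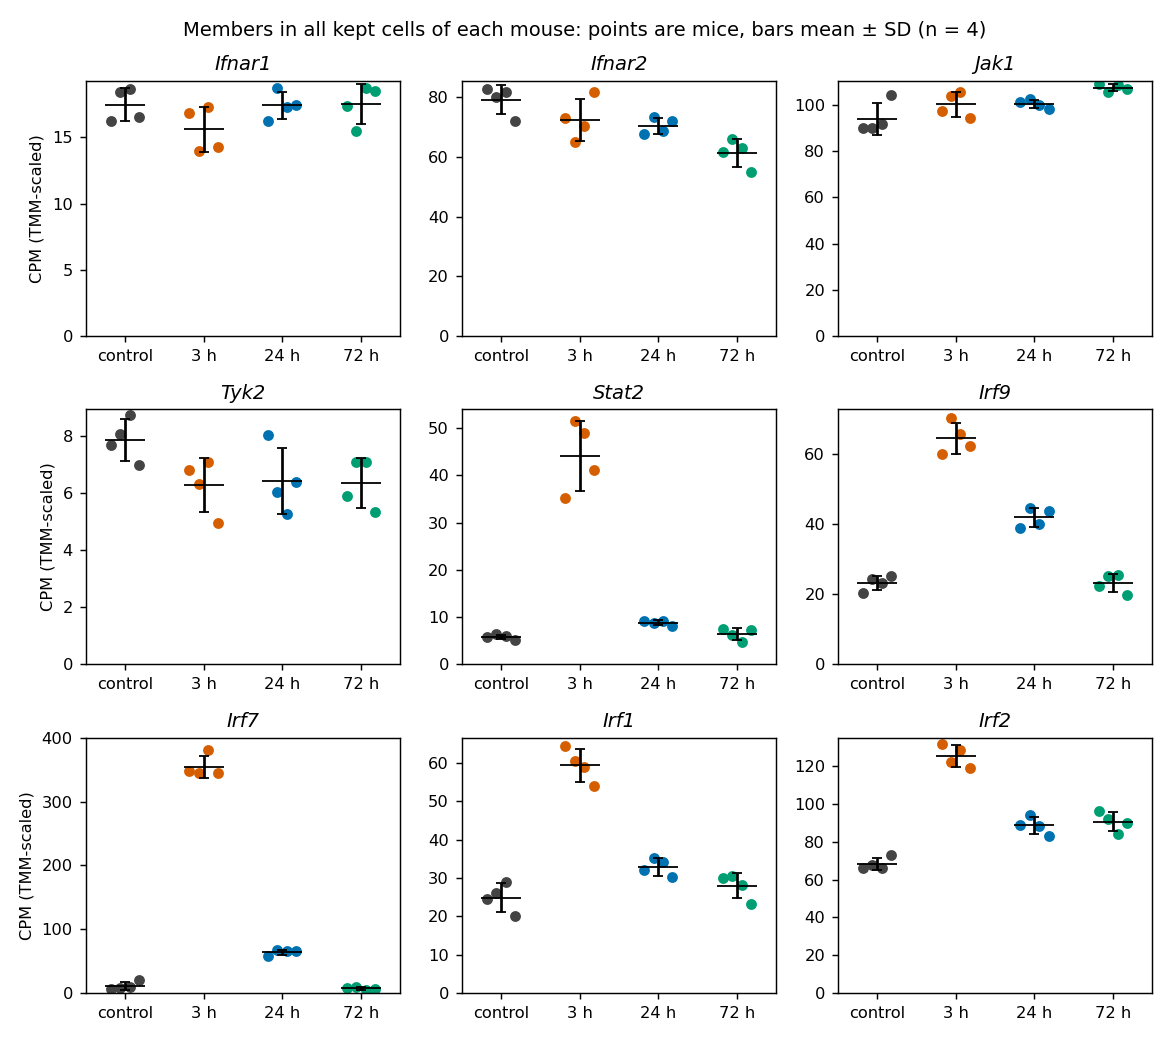
CPM of the 9 members in the whole LK compartment by time after IFNα, one panel per gene with its own axis; points are single mice, bars the mean and SD of 4 mice. Irf7, Stat2, Irf9, Irf1 and Irf2 peak at 3 h with no treated mouse among the controls, Irf2 is still above control at 72 h, and Ifnar2 is lowest at 72 h.

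Irf7, the interferon regulatory factor that amplifies interferon production, changed most among the members at 3 h. Its level in control was 5.86, 6.98, 9.10 and 20.0 CPM in the 4 mice. At 3 h it was 348, 344, 381 and 344 CPM. The 3 h mice lay close together and far above control, and the highest control value was that of mouse 4, in which 15 of 23 Irf7 UMIs came from 1 cell and which stood at 7.35 CPM without that cell. The log2 fold change was 5.53 ± 0.14, which is 46.3-fold (adjusted p = 1.6e-19, edgeR).

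At 24 h Irf7 had dropped to 57.9, 66.7, 65.6 and 65.8 CPM, a log2 fold change of 3.07 ± 0.14 against control (adjusted p = 1.1e-13, edgeR). At 72 h the values were 7.30, 9.99, 5.09 and 5.83 CPM, overlapping with the controls (log2 fold change -0.14 ± 0.19, adjusted p = 0.60, edgeR). Irf7 was thus high at 3 h, intermediate at 24 h and mixed with control at 72 h. The steps from 3 to 24 h (-2.47) and from 24 to 72 h (-3.20) both passed the test.

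Stat2 encodes the DNA-binding complex's transactivating subunit, which is recruited to the receptor. Control mice held 5.75, 6.36, 6.06 and 5.22 CPM of Stat2, and mice at 3 h held 35.2, 51.5, 48.9 and 41.2 CPM. All 3 h mice lay well above control, and the log2 fold change was 2.88 ± 0.12 (adjusted p = 5.6e-15, edgeR). Most of this had gone by 24 h, with 9.11, 8.73, 9.28 and 8.15 CPM, still above every control mouse (log2 fold change 0.54 ± 0.13, adjusted p = 0.0034, edgeR). At 72 h the mean was 6.52 CPM against 5.85 CPM in control, a difference of 0.12 ± 0.15 on the log2 scale that did not pass (adjusted p = 0.54, edgeR).

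Irf9, the subunit that gives ISGF3 its DNA specificity, stood at 20.5, 24.3, 23.1 and 25.2 CPM in control. It stood at 59.9, 70.2, 65.6 and 62.4 CPM at 3 h and at 39.0, 44.7, 40.2 and 43.8 CPM at 24 h. Both sets of treated mice were separated from control and from each other. The log2 fold change was 1.51 ± 0.08 at 3 h (adjusted p = 4.8e-13, edgeR) and 0.89 ± 0.08 at 24 h (adjusted p = 8.6e-09, edgeR). At 72 h the mean of 23.2 CPM lay beside the control mean of 23.3 CPM, and the difference of 0.03 did not pass (adjusted p = 0.82, edgeR).

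The partners of ISGF3 moved unequally. The log2 difference of Irf9 and Stat2 within a mouse changed by -1.41 at 3 h against control, and all 4 treated mice lay below all 4 controls (exact two-sided permutation test over mice, p = 0.0286, the smallest that 4 against 4 allows, adjusted over 12 such values to 0.0857). At 24 h the same difference had changed by 0.26 (exact permutation p = 0.0857, adjusted 0.129). No adjusted value of the 12 passed 0.05. All 12 differences were taken over all kept cells of a mouse, and the part of changed cell proportions in them was not tested.

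Irf1, an activating factor, was at 24.4, 26.1, 29.0 and 20.0 CPM in control mice. At 3 h it was at 64.3, 60.4, 59.1 and 53.9 CPM, above every control mouse (log2 fold change 1.18 ± 0.09, adjusted p = 1.6e-10, edgeR). At 24 h it was at 31.9, 35.1, 34.3 and 30.2 CPM, which was still above every control mouse though by a small margin (log2 fold change 0.33 ± 0.08, adjusted p = 0.0042, edgeR). By 72 h the mice, with a mean of 28.0 CPM, overlapped with control (log2 fold change 0.10, adjusted p = 0.40, edgeR).

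Irf2, the factor that competes with the activators, had a different course. Control mice held 66.0, 67.6, 66.3 and 73.1 CPM and mice at 3 h held 132, 122, 129 and 119 CPM. Irf2 was then 89.2, 94.0, 88.6 and 83.1 CPM at 24 h and 96.4, 91.9, 84.4 and 90.0 CPM at 72 h. All 12 treated mice lay above all controls, and the step from 24 to 72 h was 0.03 on the log2 scale and did not pass (adjusted p = 0.75, edgeR). The log2 fold changes against control were 0.90 ± 0.05 (adjusted p = 2.1e-12, edgeR), 0.40 ± 0.05 (adjusted p = 2.6e-06) and 0.44 ± 0.05 (adjusted p = 8.9e-07).

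Of the 5 induced members, Irf2 was the one still called higher than control at 72 h. HSC-like cells, in which Irf2 was highest, made up 8.90 to 17.2% of the kept cells of the control mice and 18.8 to 22.5% of those of the 72 h mice. They were 288 of 2474 kept cells in control and 384 of 1661 at 3 h. The Irf2 change at 3 h was 0.90 in the whole compartment and 0.68 in the lowest of 25 alternatives, all of which passed. Within classes it ran from 0.26 in HSC-like to 1.28 in erythroid-like cells. With each of the 5 cell classes given the same weight in every mouse, which left out control mouse 4, the Irf2 change at 72 h was 0.20 and still passed (adjusted p = 0.0089, limma). Under the same weights the Irf1 change at 24 h was 0.25 and did not pass (adjusted p = 0.093, limma), and Irf7 at 72 h was lower than control by -0.41 (adjusted p = 0.014, limma).

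Neither receptor chain was called higher at any time point. Ifnar1 was 17.5 ± 1.26 CPM in control (SD, n = 4), 15.6 ± 1.73 CPM at 3 h, 17.4 CPM at 24 h and 17.5 CPM at 72 h, and no time point passed (adjusted p = 0.16, 0.94 and 0.91, edgeR). The 3 h change was -0.17 with TMM, -0.32 with library-size scaling (adjusted p = 0.0068, edgeR) and -0.30 with equal class weights (adjusted p = 0.023, limma). Ifnar2, the chain that binds the ligand with high affinity, was 82.9, 80.2, 81.7 and 72.2 CPM in control and 61.6, 66.0, 63.0 and 55.1 CPM at 72 h. All 72 h mice were below all controls, and the log2 fold change was -0.40 ± 0.06 (adjusted p = 2.6e-05, edgeR). At 24 h it was -0.19 ± 0.06 (adjusted p = 0.015, edgeR), or -0.12 with equal class weights (adjusted p = 0.26, limma), and at 3 h it was -0.16 ± 0.06 and did not pass (adjusted p = 0.058, edgeR). The 3 h change was called with library-size scaling (-0.30, adjusted p = 4.1e-04, edgeR), without a filter on low counts (adjusted p = 0.033, edgeR) and with the likelihood ratio test (adjusted p = 0.048, edgeR). The 72 h change of Ifnar2 passed in 25 of 25 alternatives and was -0.26 where it was smallest. Within classes it ran from -0.44 in erythroid-like to 0.06 in MK-like cells, and it passed in 2 of 5.

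Taken over all kept cells, the log2 difference of Ifnar1 and Ifnar2 within a mouse changed by 0.16 at 24 h and by 0.37 at 72 h against control. At both times the treated mice did not overlap with the controls, and the exact permutation p was 0.0286 (adjusted 0.0857).

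The kinases moved little. Jak1, bound to the IFNAR2 chain, was 94.0 ± 7.01 CPM in control (SD, n = 4) and 107.5 ± 1.66 CPM at 72 h, where all treated mice lay above all controls (log2 fold change 0.23 ± 0.04, adjusted p = 2.8e-04, edgeR). At 3 h the Jak1 change was 0.13 ± 0.05 (adjusted p = 0.027, edgeR) with TMM and -0.02 with library-size scaling, the mice overlapped with control, and the call held in 16 of 25 alternative analyses. Such alternatives, here and below, include 16 fits that each left out a mouse. At 24 h the Jak1 change was also 0.13 (adjusted p = 0.024, edgeR). With equal class weights the Jak1 changes at 3, 24 and 72 h were 0.02, 0.04 and 0.11, none of which passed (adjusted p = 0.78, 0.63 and 0.068, limma).

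Tyk2, bound to the IFNAR1 chain, was 7.67, 8.06, 8.72 and 6.96 CPM in control. It was 5.90, 7.07, 7.06 and 5.35 CPM at 72 h, overlapping with control, and the log2 fold change of -0.36 ± 0.13 passed narrowly (adjusted p = 0.035, edgeR). At 24 h the change was -0.35 ± 0.12 (adjusted p = 0.035, edgeR) and at 3 h -0.35 ± 0.15 (adjusted p = 0.073, edgeR). Neither call was firm, since 16 of 24 alternatives gave it at 24 h and 18 of 24 at 72 h.

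The cells were grouped into classes by clustering control cells, and treated cells were placed by their nearest control cells. The members, the listed pathway genes and the interferon ligands, 67 genes in all, were barred from this step. Other interferon-responsive genes, such as Ly6a, were not barred, so the placing was not independent of the response. The classes are called HSC-like, LMPP-like (lymphoid-primed multipotent progenitors), myeloid-like, erythroid-like and MK-like (megakaryocyte progenitors), each from its markers. Ly6a, Hlf, Mllt3 and Mecom were among the 10 leading genes of the HSC-like cluster, Dntt and Flt3 of both LMPP-like clusters, Pf4 and Itga2b of the MK-like cluster, and Klf1 and Car1 of the larger erythroid-like cluster. The myeloid-like class joined a cluster led by F13a1, Ms4a6c and Irf8, one led by Elane and Mpo, and one led by S100a8 and S100a9, which held 341, 196 and 174 cells in control and 191, 48 and 17 at 3 h. Another 2 clusters, one led by Scin and one by cell division genes such as Nusap1 and Mki67, were not named. A cluster that scored highest for monocyte markers (37 control cells, called monocyte-like) and a basophil, mast cell and eosinophil-like one (60 control cells) were also found. The leading genes of the monocyte-like cluster were Cd74, H2-Aa, Lgals3 and H2-Eb1. Lgals3 was the 1 monocyte marker among its 10 leading genes, so that its name is uncertain. Both clusters were small. They were left out of the classes and of the later reading by cluster. Control, 3, 24 and 72 h libraries held 288, 384, 556 and 497 HSC-like cells and 711, 256, 662 and 356 myeloid-like cells. Control mouse 4 gave 10 HSC-like cells and too few erythroid-like and MK-like cells to be tested, so n = 3 for the controls of those 2 classes. The mouse, not the cell, was the unit of every test.

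In unchallenged mice, 8 of the 9 members had their highest mean level among the 5 classes in the HSC-like class. Outside the classes, the monocyte-like cluster had higher control means than the HSC-like cluster for Ifnar1 (54.0 against 36.5 CPM) and Ifnar2. Means were also higher there for Tyk2 (21.7 against 9.86 CPM), Stat2 (16.5 against 11.2 CPM) and Irf7 (38.2 against 32.8 CPM), without TMM factors. These 3 monocyte-like means rested on 10, 8 and 15 UMIs of 3 mice. The Stat2 and Irf7 differences lay within the spread. Their SDs were 16.2 and 30.5 CPM in the monocyte-like cluster and 7.82 and 13.4 CPM in the HSC-like cluster. The monocyte-like means were lower for Jak1, Irf9, Irf1 and Irf2. These levels are a description with no test. For Ifnar1, Jak1, Irf9, Irf7 and Irf2 the HSC-like values of the control mice lay above all those of the next class, while for Tyk2, Stat2 and Irf1 they overlapped with it. For Stat2 and Irf1 the overlap came from control mouse 4 alone, with 0 and 1 UMI in its HSC-like cells. The other control mice held 12.5 to 17.6 CPM of Stat2, against at most 7.11 CPM in LMPP-like cells. They held 46.9 to 84.6 CPM of Irf1, against at most 43.5 CPM. The order of the classes was the same for all 9 members when control mouse 4 was left out.

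Among the classes, Irf7 was highest in HSC-like and lowest in myeloid-like cells. It was at 30.1, 18.2, 49.0 and 28.1 CPM in the HSC-like cells of the 4 controls. The erythroid-like, MK-like and LMPP-like means were 9.42, 9.04 and 8.59 CPM, and those 3 classes overlapped with each other. Myeloid-like cells had 1.13, 1.87, 0.509 and 2.30 CPM, below every other class and resting on 30 UMIs.

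Irf2 fell stepwise from 201.9 ± 21.7 CPM in HSC-like cells (SD, n = 4) over 108.6 ± 2.64 CPM in MK-like cells (n = 3) to 83.5 ± 9.56 CPM in LMPP-like cells (n = 4), with no overlap between these neighbours. The myeloid-like mean of 36.7 CPM and the erythroid-like mean of 35.3 CPM did not differ beyond their spread. Irf9 was 54.8 ± 10.0 CPM in HSC-like cells, and below them the MK-like, LMPP-like and erythroid-like classes (27.2, 26.5 and 22.6 CPM) overlapped in turn, with myeloid-like cells lowest at 15.9 CPM and overlapping with erythroid-like cells. Irf1 was lowest in erythroid-like cells, at 5.08 ± 2.71 CPM (n = 3), below all MK-like values at a mean of 22.9 CPM. Above them stood myeloid-like (23.4 CPM) and LMPP-like cells (35.3 CPM), with the HSC-like class at 49.0 ± 31.0 CPM. The HSC-like values ranged from 9.38 CPM, from 1 UMI of control mouse 4, to 84.6 CPM.

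The upstream members were ordered in other ways. Ifnar1 ran from 35.0 ± 7.36 CPM in HSC-like cells to 8.02 ± 1.21 CPM in erythroid-like cells, with LMPP-like, myeloid-like and MK-like cells overlapping in turn between them (20.3, 17.97 and 14.3 CPM). Ifnar2 was the exception to the HSC-like lead: it was 103.6 ± 1.89 CPM in LMPP-like and 96.6 ± 3.16 CPM in myeloid-like cells, which did not overlap, and 59.9 CPM in HSC-like cells, where mouse 4 gave 9.38 CPM from 1 UMI and the other mice 74.1 to 78.2 CPM. Erythroid-like and MK-like cells were lowest for Ifnar2 (42.5 and 40.2 CPM) and overlapped.

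Jak1 was 176.5 ± 16.6 CPM in HSC-like cells, above MK-like (113.6 CPM) and LMPP-like (108.7 CPM) cells, which overlapped. Erythroid-like cells followed at 85.4 CPM and myeloid-like cells at 61.3 CPM, each separated from its neighbours. Tyk2 means went from 9.45 CPM in HSC-like cells over myeloid-like (8.90 CPM), MK-like (7.71 CPM) and LMPP-like (6.69 CPM) to erythroid-like cells (5.28 CPM), and every class overlapped with the next. Stat2 means went from 10.8 CPM in HSC-like cells over 5.59, 5.04 and 4.33 CPM in LMPP-like, MK-like and myeloid-like cells to 3.90 CPM in erythroid-like cells. Every class overlapped with the next here too, the HSC-like class through control mouse 4 alone (0 UMIs).

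**Figure D2:**
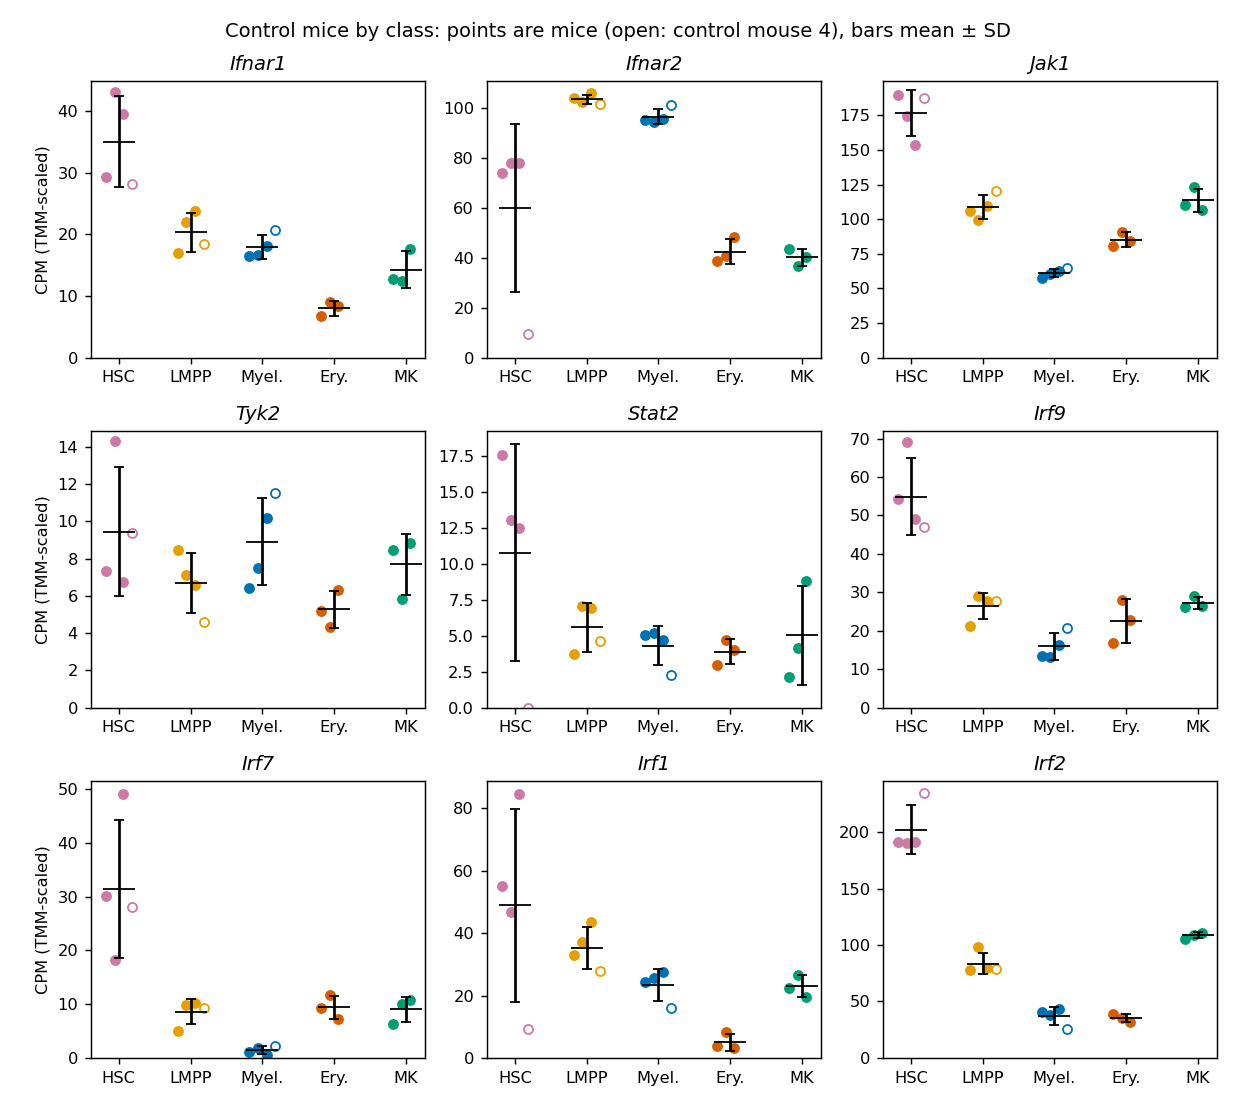
CPM of each member in 5 cell classes of the PBS-treated control mice, one panel per gene with its own axis; points are mice, the open point is control mouse 4, and bars are the mean and SD. HSC-like cells have the highest mean in 8 of 9 panels, and Ifnar2 is highest in LMPP-like cells.

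After IFNα the same 5 members were called in every class at 3 h. Over the 44 pairs of a member and a class that could be tested, 25 were higher and 1 lower. Genes called higher made up 10.3% of those tested in HSC-like, 12.2% in LMPP-like, 13.8% in myeloid-like, 9.3% in erythroid-like and 8.12% in MK-like cells, and genes called lower 4.98, 7.28, 10.5, 4.22 and 2.65%. The 25 pairs were Stat2, Irf9, Irf7, Irf1 and Irf2 in each of the 5 classes, and the lower pair was Ifnar1 in HSC-like cells. From 3 to 24 h 24 pairs were lower and 0 higher, where 9.33, 10.7, 12.3, 7.06 and 6.88% of all genes fell in the 5 classes in the same order. At an unadjusted p under 0.05 there was still no higher pair.

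Among the classes, HSC-like cells had the highest Irf7 level and the smallest log2 fold change at 3 h. Their values were 622, 542, 653 and 690 CPM at 3 h, all far above the control values given above. The log2 fold change was 4.24 ± 0.17 (adjusted p = 7.4e-22, edgeR). At 24 h they held 149, 133, 121 and 157 CPM, still above every control (2.07 ± 0.19, adjusted p = 4.0e-10, edgeR), and at 72 h 17.4, 34.6, 7.48 and 20.3 CPM, overlapping with control. The 72 h change of -0.81 ± 0.28 did not pass (adjusted p = 0.11, edgeR). It was called lower with the likelihood ratio test (adjusted p = 0.015, edgeR) and without the filter on low counts (adjusted p = 0.0031, edgeR).

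Myeloid-like cells had the lowest Irf7 level and the largest log2 fold change at 3 h. They stood at 162, 187, 155 and 168 CPM at 3 h and at 21.6, 35.4, 27.6 and 28.2 CPM at 24 h. Every treated mouse at these times lay above every control, with log2 fold changes of 7.09 ± 0.18 (adjusted p = 2.7e-25, edgeR) and 4.56 ± 0.22 (adjusted p = 2.1e-17, edgeR). At 72 h 12 UMIs were left, with values of 0.308 to 1.61 CPM. The order of the classes at 3 h began with HSC-like (mean 626.7 CPM) and ended with myeloid-like cells (167.9 CPM). Between them lay MK-like (399.2 CPM), erythroid-like (380.4 CPM) and LMPP-like cells (330.7 CPM), where neighbours overlapped. All HSC-like values lay above those of these classes, and all myeloid-like values below.

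The rise itself was compared between classes by an interaction term with the mouse as a block. At 3 h, 4 of the 9 members responded differently between classes (Irf7, Irf2, Irf1 and Stat2), where 6.27% of 10694 genes did. Scaled by library size, 2 members passed (Irf7 and Irf2). The Irf7 term over all classes had an adjusted p of 1.0e-06, and the myeloid-like response exceeded the HSC-like one by 2.77 ± 0.36 on the log2 scale (adjusted p = 2.2e-08). The LMPP-like, erythroid-like and MK-like responses exceeded it by 1.05 ± 0.30, 1.04 ± 0.31 and 1.23 ± 0.38, which did not pass one by one (adjusted p = 0.12, 0.054 and 0.31). At 24 h Irf7 was the 1 member that passed over all classes, where 4.67% of genes did (adjusted p = 6.9e-05), and the myeloid-like excess was 2.44 ± 0.37 (adjusted p = 4.6e-06). The control level in myeloid-like cells, against which both excesses were measured, rested on 30 UMIs.

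Detection per cell was compared with every cell thinned to 5000 UMIs. The share of kept cells with an Irf7 UMI was 4.69% in control (3.42 to 6.14% over mice), 77.8% at 3 h (76.5 to 80.1%), 27.8% at 24 h (26.3 to 28.7%) and 4.15% at 72 h (2.99 to 5.68%). Without thinning the shares were 10.95, 96.1, 60.1 and 9.52%. Of the 2474, 1661, 3462 and 2449 kept cells, 2439, 1600, 3427 and 2381 reached the thinning depth. The control and 72 h ranges overlapped, and those of 3 and 24 h were separate from both.

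By class, the thinned share at 3 h was 90.3% in HSC-like, 76.2% in LMPP-like, 53.8% in myeloid-like, 80.0% in erythroid-like and 80.6% in MK-like cells. In control it was 10.8, 4.39, 0.72, 4.59 and 4.41% in the same order. Pf4, a megakaryocyte gene that myeloid progenitors should lack, was seen in 1.18% of the thinned myeloid-like control cells (median 34028 UMIs before thinning). The Irf7 share in those control cells, 0.72%, was not above it. At 3 h the share with Pf4 in myeloid-like cells was 0.762%, against 53.8% with Irf7. The share with Elane, a granule gene of myeloid progenitors, in HSC-like cells was 35.3% in control and 15.3% at 3 h. Irf7 in control was seen most often in the HSC-like class. How far RNA from other cells entered these shares was not tested.

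**Figure D3:**
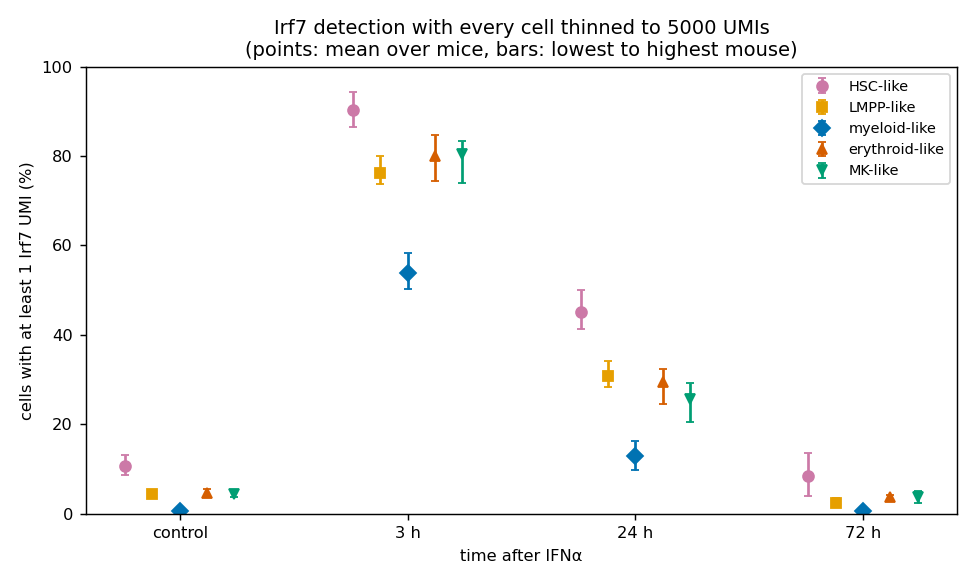
Percent of cells with at least 1 Irf7 UMI after thinning each cell to 5000 UMIs, by class and time after IFNα; points are means over mice and bars run from the lowest to the highest mouse. At 3 h the share runs from 53.8% in myeloid-like to 90.3% in HSC-like cells, and at 72 h it is 8.54% or less in each class.

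Stat2 rose in all 5 classes at 3 h and in none of them stayed called at 24 h. In HSC-like cells it was 17.6, 13.03, 12.5 and 0 CPM in control and 85.0, 145, 108 and 109 CPM at 3 h. All treated mice lay above, with a log2 fold change of 2.96 ± 0.21 (adjusted p = 1.6e-14, edgeR). MK-like cells went from 2.11, 4.16 and 8.83 CPM to 41.5, 52.3, 47.7 and 60.4 CPM (3.41 ± 0.33, adjusted p = 2.2e-10, edgeR). Myeloid-like cells, which lay lowest at 3 h, went from 5.09, 5.24, 4.71 and 2.30 CPM to 18.8, 20.5, 26.4 and 14.4 CPM (2.03 ± 0.20, adjusted p = 5.3e-10, edgeR).

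The Stat2 response differed over classes with an adjusted p of 0.047, and the myeloid-like response was smaller than the HSC-like one by -0.95 ± 0.30, which did not pass alone (adjusted p = 0.068). The MK-like response exceeded the HSC-like one by 0.47 ± 0.43 (adjusted p = 0.91). At 24 h the Stat2 changes ran from 0.38 to 0.85 on the log2 scale over the classes, and 0 of 5 passed under the main settings with edgeR. In 3 classes the unadjusted p was under 0.05 and all treated mice lay above all controls. With uncorrected placing of treated cells, LMPP-like cells passed (0.71, adjusted p = 0.038, edgeR).

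Irf9 rose at 3 h by 0.94 ± 0.15 in HSC-like cells (adjusted p = 4.0e-06, edgeR), from 54.3, 69.1, 49.0 and 46.9 CPM to 104, 127, 97.7 and 107 CPM. No HSC-like value at 3 h fell among the controls. It rose by 1.26 ± 0.16 in LMPP-like, 1.60 ± 0.14 in myeloid-like, 1.27 ± 0.19 in erythroid-like and 1.36 ± 0.19 in MK-like cells. The difference of these responses over all classes did not pass at 3 h (adjusted p = 0.27). The myeloid-like excess over the HSC-like response passed alone in 2 alternatives. It was 0.75 with library-size scaling (adjusted p = 0.020, edgeR) and 0.71 with uncorrected placing of treated cells (adjusted p = 0.021, edgeR).

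At 24 h Irf9 was still called in LMPP-like (0.81 ± 0.14), myeloid-like (1.08 ± 0.12) and erythroid-like cells (0.63 ± 0.16), and not in HSC-like (0.40 ± 0.14, adjusted p = 0.12, edgeR) or MK-like cells (0.53 ± 0.17, adjusted p = 0.078). The myeloid-like response at 24 h exceeded the HSC-like one by 0.65 ± 0.18 (adjusted p = 0.048), though the test over all classes missed the threshold (adjusted p = 0.078). At 72 h HSC-like cells had 35.8, 41.7, 41.2 and 35.2 CPM, below all controls (-0.55 ± 0.16, adjusted p = 0.041, edgeR), a call that 17 of 25 alternatives kept.

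Irf1 had its largest fold change in erythroid-like cells, where its control level was lowest. Their values went from 3.72, 8.20 and 3.32 CPM to 11.7, 14.7, 17.5 and 20.0 CPM, with no overlap (1.71 ± 0.39, adjusted p = 0.0021, edgeR). HSC-like cells went from 55.04, 46.9, 84.6 and 9.38 CPM to 197, 146, 128 and 121 CPM (1.26 ± 0.18, adjusted p = 6.2e-07, edgeR). LMPP-like cells rose by 0.73 ± 0.13, myeloid-like cells by 0.67 ± 0.13 and MK-like cells by 1.33 ± 0.22, and the response differed over the classes (adjusted p = 0.039), though the erythroid-like excess over the HSC-like response was 0.39 ± 0.38 and did not pass (adjusted p = 0.73). Within the larger of the erythroid-like clusters alone, the Irf1 change was 1.01 and did not pass (adjusted p = 0.13, edgeR).

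Irf2 had its smallest fold change in the class where its control level was highest. HSC-like cells held 192, 190, 191 and 234 CPM in control and 267, 230, 227 and 210 CPM at 3 h, and the mice overlapped. Their log2 fold change of 0.26 ± 0.09 passed narrowly (adjusted p = 0.045, edgeR) and did so in 6 of 25 alternatives. Erythroid-like cells held 38.6, 34.9 and 32.2 CPM in control and 94.0, 67.8, 96.9 and 84.6 CPM at 3 h, with no overlap (1.28 ± 0.15, adjusted p = 1.2e-07, edgeR).

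The other classes lay between, with 0.63 ± 0.10 in LMPP-like, 0.84 ± 0.09 in myeloid-like and 0.45 ± 0.11 in MK-like cells. The Irf2 response differed over the classes (adjusted p = 5.3e-04), the erythroid-like one exceeding the HSC-like one by 0.92 ± 0.17 (adjusted p = 2.9e-04) and the myeloid-like one by 0.50 ± 0.13 (adjusted p = 0.017). The class means of Irf2 ran from 35.3 to 201.9 CPM in control and from 71.9 to 233.5 CPM at 3 h. In HSC-like cells the means at 24 and 72 h were 207.8 and 188.8 CPM, beside 201.9 CPM in control.

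**Figure D4:**
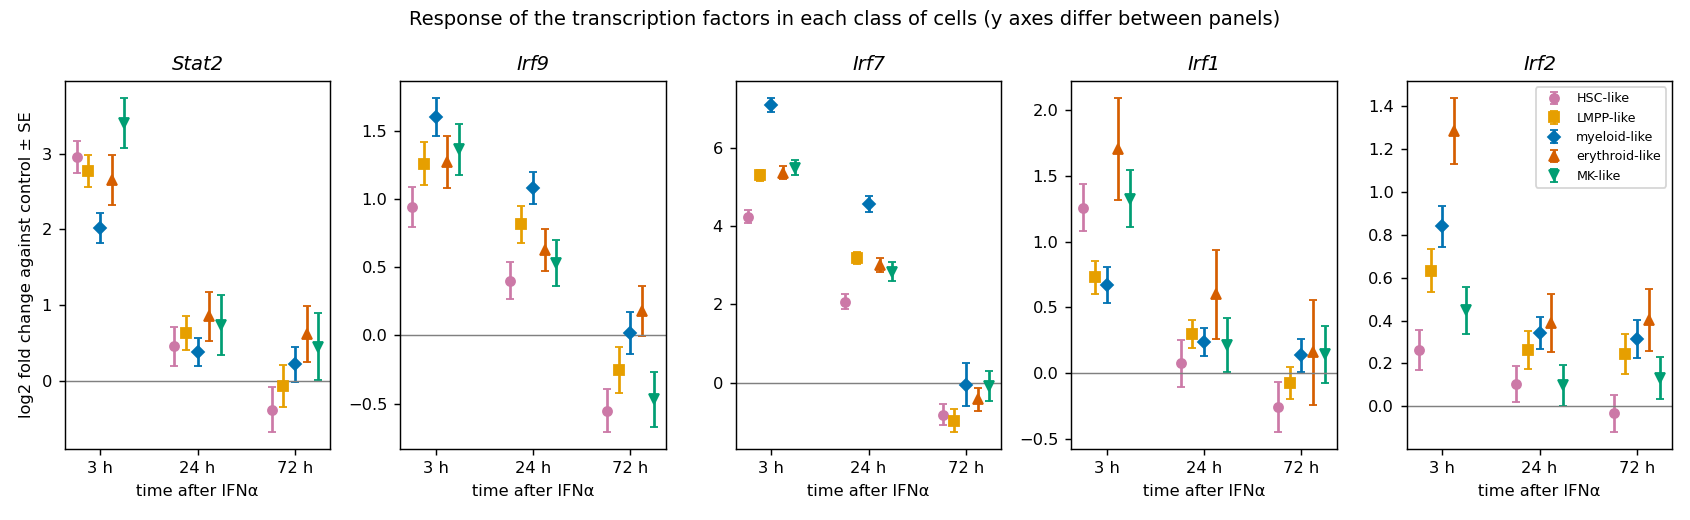
Log2 fold change against control, with its standard error, of Stat2, Irf9, Irf7, Irf1 and Irf2 in the 5 cell classes at 3, 24 and 72 h after IFNα. At 3 h the log2 fold change of Irf7 is largest in myeloid-like and smallest in HSC-like cells, and that of Irf2 is largest in erythroid-like cells.

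At 24 h, 9 of the 44 pairs of a member and a class were higher and 1 lower, where 2.58, 4.89, 8.82, 5.3 and 2.65% of genes were called higher in HSC-like, LMPP-like, myeloid-like, erythroid-like and MK-like cells. The 9 were Irf7 in all 5 classes, Irf9 in 3, and Irf2 in myeloid-like cells (0.34 ± 0.08, adjusted p = 0.0016, edgeR). The lower pair was Ifnar2 in LMPP-like cells (-0.29, adjusted p = 0.0098, edgeR), where 2.6% of genes were called lower, beside 0.862, 6.29, 4.28 and 0.713% in HSC-like, myeloid-like, erythroid-like and MK-like cells.

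At 72 h, 1 pair was higher, Irf2 in myeloid-like cells (0.31 ± 0.09, adjusted p = 0.015, edgeR), and 4 were lower. Those were Ifnar2 in LMPP-like (-0.28, adjusted p = 0.024) and myeloid-like cells (-0.27, adjusted p = 0.011), Irf9 in HSC-like cells and Irf7 in LMPP-like cells (-0.97 ± 0.29, adjusted p = 0.041). Of 26 alternative settings each, Ifnar2 in LMPP-like cells passed in 19, Irf7 in LMPP-like cells in 21, Irf2 in myeloid-like cells in 23 and Ifnar2 in myeloid-like cells in 25. Genes called lower at 72 h made up 1.09% in HSC-like, 2.23% in LMPP-like, 6.61% in myeloid-like, 1.95% in erythroid-like and 1.12% in MK-like cells, and genes called higher 2.31, 4.1, 7.69, 3.24 and 2.65%. The LMPP-like Irf7 values at 72 h, 3.46, 5.36, 5.68 and 2.77 CPM, overlapped with the controls at 5.08, 9.81, 10.2 and 9.25 CPM. The response at 72 h differed between classes for 0 of the 9 members with edgeR, where 0.383% of genes did, and 1 member (Irf9) had an unadjusted p under 0.05.

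The upstream members were seldom called within the classes. Under the main settings Jak1 passed in 0 of the 5 classes at every time point (edgeR). Its changes ran from -0.15 to 0.17 on the log2 scale at 3 h and from 0.02 to 0.28 at 72 h. An unadjusted p was under 0.05 in 1 class at 24 h and 1 at 72 h. Among alternatives, Jak1 was higher at 24 h in the largest myeloid-like cluster (0.32, adjusted p = 0.013, edgeR). It was lower at 3 h in LMPP-like cells with library-size scaling (-0.25, adjusted p = 0.042, edgeR). The rise of Jak1 in the whole compartment at 72 h was thus not called within any class.

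Ifnar1 in HSC-like cells was 29.4, 43.0, 39.4 and 28.1 CPM in control and 19.3, 22.5, 27.3 and 17.8 CPM at 3 h, below all controls by a small margin (-0.65 ± 0.22, adjusted p = 0.041, edgeR). That call held in 18 of 25 alternatives, and no difference of the Ifnar1 response between classes passed (adjusted p = 0.78). Tyk2 was called in none of the 4 classes with enough counts at 3 h, with changes from -0.33 to -0.13. It was not tested in MK-like cells.

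The classes held several clusters whose sizes changed with time, so the member means were also read in each of 11 clusters, over mice with at least 3 cells in the cluster and in CPM of the cluster's own UMIs without TMM factors. On that scale the mean at 3 h was above control in 11 of 11 clusters for Irf7, Stat2, Irf9 and Irf1, and Irf7 at 24 h in 11 of 11. For Irf2 at 3 h it was above control in 10 of 11. The exception was the HSC-like cluster, with 211.6 CPM in control and 210.1 CPM at 3 h. In the largest myeloid-like cluster alone the 3 h changes of Irf7, Irf2 and Stat2 were 6.77, 0.64 and 1.74, and in the largest erythroid-like cluster Irf2 changed by 1.18.

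The log2 difference of Irf1 and Irf2 within a mouse changed by 0.38 at 3 h, with every treated mouse above every control (exact permutation p = 0.0286, adjusted 0.0857), by 0.03 at 24 h and by -0.23 at 72 h (exact permutation p = 0.23, adjusted 0.30). The difference of Jak1 and Tyk2 changed by 0.42, 0.39 and 0.50 at 3, 24 and 72 h, with adjusted exact permutation p of 0.129, 0.114 and 0.114.

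The genes most like each strongly responding member were taken over 20 points, the mean log2 CPM of 5 classes at 4 time points, among 7753 genes. The points share libraries and mice, and the values are a description. Irf7 was followed most closely by Oas2 (Pearson r = 0.978), Rtp4 (0.975) and Oas3 (0.972), and Irf9 by Oas2 (0.950), Oas3 (0.945) and Rtp4 (0.941), where Oas2 and Oas3 encode enzymes that sense viral RNA. Stat2 was most like Trim12c (0.969), Ifit1bl1 (0.967) and Herc6 (0.965). Irf1 was most like a different set, Fndc3a (0.970), Cpne3 (0.960) and H2-M3 (0.959).

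The other genes of the pathway were taken from a list of 37 by symbol: other STATs, JAKs and IRFs, IRF2-binding proteins, receptor chains of other interferons, and the inhibitors of the SOCS and PIAS families, Usp18 and phosphatases. Of these, 35 could be tested in the whole compartment, and 14 were higher and 6 lower at 3 h, 7 and 1 at 24 h, and 9 and 4 at 72 h. Over all genes, 19.7% were higher and 19.2% lower at 3 h, 14.5 and 13.8% at 24 h, and 18.9 and 18.5% at 72 h. With a log2 fold change over 1 required, 8 passed at 3 h, 1 at 24 h and 0 at 72 h, and the median change of the list was 0.07 at 3 h against -0.03 over all genes. Ifnlr1 (1 UMI) and Irf4 (13 UMIs) were too rare to be tested.

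The inhibitors led this list. Usp18, which binds IFNAR2 and damps the receptor, went from a mean of 7.36 CPM in control to 295 CPM at 3 h, 21.5 CPM at 24 h and 6.11 CPM at 72 h (log2 fold change at 3 h 5.57, adjusted p = 2.5e-23, edgeR). Socs1, an inhibitor of the JAK kinases, rose by 2.97 at 3 h (adjusted p = 3.0e-14, edgeR). Socs3 rose by 2.01, Cish by 1.46 and Socs2 by 1.28 on the same scale.

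Stat4, a factor better known from other cytokine receptors, rose by 1.12 on the log2 scale at 3 h (adjusted p = 4.4e-10, edgeR). Irf8, a factor of monocyte and dendritic cell development and a marker of the myeloid-like class, fell by 1.12 on the log2 scale at 3 h (adjusted p = 3.3e-09, edgeR), from 117 to 54.8 CPM. Myeloid-like cells made up 25.9 to 29.9% of the kept cells of the control mice and 12.6 to 18.5% at 3 h, and the part of that in the Irf8 value was not tested.

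The ligands were nearly absent from these cells. Of 21 type I, II and III interferon genes in the files, 4 had any UMI (Ifnk, Ifnab, Ifnz and Ifng), with 13, 2, 10 and 6 UMIs in all among 55267077, 23823015, 75766639 and 43046628 UMIs of the control, 3, 24 and 72 h cells. Ifnb1 and the numbered Ifna genes were at 0, and no ligand had enough counts for a test. These totals limit RNA in the sorted cells and say nothing of protein or of other cells.

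Marker lists of other cells were summed in each mouse. The summed level of 6 plasmacytoid dendritic cell markers was 19.95 to 34.9 CPM in control and 15.1 to 22.2 CPM at 3 h. Most of it was Lair1, with means of 20.97 and 14.3 CPM, while Pacsin1 stood at 0.39 CPM in control and 2.88 CPM at 3 h. The 6 B cell markers summed to 38.1 to 49.4 CPM in control and 28.3 to 31.1 CPM at 3 h, the 6 macrophage markers to 3.63 to 13.8 and 2.24 to 4.33 CPM, and the 6 stromal and endothelial markers to 9.26 to 12.1 and 9.18 to 17.4 CPM. The T and NK cell list, of which 6 of 7 genes were in the files and nearly all of whose sum was Nkg7, gave 341 to 621 CPM in control and 291 to 388 CPM at 3 h. A list of 12 handling and stress genes gave 484 to 1394 CPM in control and 449 to 663 CPM at 3 h, 550 to 679 CPM at 24 h and 566 to 1308 CPM at 72 h. Within it Hspa1a had means of 34.1 CPM in control and 1.67 CPM at 3 h, and Hspa1b of 38.6 and 2.64 CPM. The part of these lists in the members' changes was not tested.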

How the data were processed

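Each of the 4 libraries held UMIs per gene and cell and antibody tags that marked 4 mice. The authors deposited raw UMI counts per gene and cell, made with Cell Ranger 3.1.0 on mm10 per the labels, with Seurat named beside it. The authors also deposited a hash identity per cell, which gave its mouse, and a hashtag margin score, which was not used. The members and gene lists were chosen with earlier results of these data known. Cells were kept at 700 or more genes and at most 5% mitochondrial UMIs.

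Control cells were clustered with Scanpy 1.11.5 (500 variable genes, 10 components, 15 neighbours, Leiden resolution 0.8) without the members, the listed pathway genes and the ligands. Treated cells were placed by mutual nearest neighbours. Counts were summed per mouse and class of at least 10 cells and tested with edgeR 4.0.16 (R 4.3.3; filterByExpr, TMM, 1 quasi-likelihood fit over 16 mice, Benjamini-Hochberg adjustment over all genes tested). A prior count of 2 entered the log2 CPM of the within-mouse differences and of the likeness between genes, not the fold changes of edgeR. Differences between classes came from an interaction with the mouse as a block. Differences of 2 members within a mouse came from an exact permutation test over all splits of the mice. The scripts were tested on simulated data. The p-values measure the spread between mice that shared 1 library per group. Named genes were the 9 members, listed pathway genes that passed with a log2 fold change over 1, and the 3 genes most correlated with each strongly changed member; 1 of the listed genes is not reported here. Alternatives were DESeq2 1.42.0, limma 3.58.1, other scalings and filters, other class rules, 30 cells per class, thinning to 3000 UMIs, each mouse left out and a replicate block. After cluster sizes were seen to change, fits on the largest cluster of 3 classes were added. Hashtag numbers were shared between libraries but did not pair the mice.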

Additional observations from a re-analysis of the deposited data

Results flagged for a closer look

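Each of 198 groups of 4 mice was searched for a mouse far from the other 3, and 9 were found, where chance gives about 1 in 20. In the whole compartment these were Jak1 in control mouse 4 (104.4 CPM, others 89.8 to 91.7), Irf7 in mouse 1 at 24 h (57.9 CPM, others 65.6 to 66.7) and Irf7 in mouse 3 at 3 h (381.3 CPM, others 344.4 to 347.8). In HSC-like cells control mouse 4, with 10 such cells, stood apart for Ifnar2 (9.38 CPM from 1 UMI, others 74.1 to 78.2) and for Irf2 (234.5 CPM from 25 UMIs, others 190.3 to 191.5). The others were Irf2 in LMPP-like cells of control mouse 2 (97.8 CPM, others 77.9 to 79.7), Irf7 in myeloid-like cells of mouse 1 at 72 h (0.308 CPM from 1 UMI, others 1.43 to 1.61), Stat2 in erythroid-like cells of mouse 3 at 24 h (10.0 CPM, others 5.84 to 6.49) and Ifnar1 in MK-like cells of mouse 4 at 72 h (15.9 CPM, others 12.9 to 13.3).

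The response to IFNα differed between cell classes, by the interaction test in edgeR over all classes, for Irf7 at 3 h (adjusted p = 1.0e-06) and 24 h (adjusted p = 6.9e-05), and at 3 h for Irf2 (adjusted p = 5.3e-04), Irf1 (adjusted p = 0.0394) and Stat2 (adjusted p = 0.0467).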

How the results depend on the processing

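Irf7, Stat2, Irf9, Irf1 and Irf2 in the whole compartment at 3 h passed as higher in 25 of 25 alternatives, as did Irf7, Stat2, Irf9 and Irf2 at 24 h and Irf2 at 72 h. Of these 25, 16 were fits that each left out a mouse. Apart from the leave-one-out fits, 1646 single values kept their side of the threshold, 27 gained a call and 26 lost one. In 1 case a called value changed sign: Jak1 at 3 h with library-size scaling (-0.017). Changes of sign where neither value passed were counted among the 1646. The cause of the changes below was not tested. All alternatives were run.

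Members lower at 3 h in the whole compartment (0) were 3 with library size, and 1 without the low-count filter, with the likelihood ratio test or with equal class weights. Those lower at 24 h (2) were 1 with DESeq2 and 0 with equal class weights, those lower at 72 h (2) were 1 with DESeq2, and those higher at 72 h (2) were 1 with equal class weights. Lower pairs of a member and a class at 3 h (1) were 0 with DESeq2, 4 with library size, and 2 with the likelihood ratio test, with uncorrected placing of treated cells or within the largest clusters. At 72 h the higher pair (1) was lost within the largest clusters (0), and the lower pairs (4) were 2 with DESeq2. With library size 2 members in place of 4 differed between classes at 3 h. Against HSC-like cells alone, library size and uncorrected placing each added 2 calls at 3 h. These were the myeloid-like response of Irf9 and the erythroid-like response of Irf7 (Irf7 adjusted p = 0.030 and 0.044, edgeR).

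Hashtag numbers did not pair the mice: of 24 pairs of groups and numbers, 0 had a correlation over 0.1 (-0.058 to 0.095). With the replicate number as a block, 1 member in place of 2 was lower at 24 h and 1 in place of 2 at 72 h, since Tyk2 did not pass (adjusted p = 0.082 and 0.066).

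With each mouse left out in turn, members lower in the whole compartment were 0 to 1 at 3 h, 0 to 2 at 24 h (0 without control mouse 1) and 1 to 2 at 72 h. Lower pairs were 0 to 2 at 3 h (0 without control mouse 2 or 3 or 3 h mouse 1 or 2) and 1 to 5 at 72 h (1 without 72 h mouse 1, 3 or 4), and higher pairs at 72 h 1 to 2 (2 without 72 h mouse 3). The within-mouse difference of Irf1 and Irf2 changed by 0.25 to 0.47 at 3 h and by -0.37 to -0.14 at 72 h. That of Irf9 and Stat2 changed by -1.48 to -1.32 at 3 h and 0.21 to 0.36 at 24 h, that of Ifnar1 and Ifnar2 by 0.11 to 0.18 at 24 h, and that of Jak1 and Tyk2 by 0.34 to 0.52 at 3 h and 0.43 to 0.61 at 72 h. Without control mouse 4 these 7 differences reached an adjusted exact permutation p of 0.049. The smallest p that 3 against 4 mice allow is no lower than for 4 against 4. The 0.049 is that smallest p, shared by the 7 and adjusted over 12 values.

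Thinned to 3000 in place of 5000 UMIs, the Irf7 share of all kept cells was 3.16% in control and 2.64% at 72 h, with 63.1% and 19.0% for 3 and 24 h between them. The HSC-like share was 7.20% in control, 77.6% after 3 h and 31.8% after 24 h, and the myeloid-like share 37.8% and 8.29% after 3 and 24 h. Cells with a Stat2 UMI were 2.25% in control and 14.5% at 3 h.

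Depth limits the rare values: control mouse 4 had 58 cells, control myeloid-like cells 30 Irf7 UMIs, and control MK-like cells 17 Stat2 UMIs.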
